A study of Mus musculus with 6 samples.

Results

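The troponin and tropomyosin isoform genes of striated muscle were examined in the gastrocnemius of mice whose muscle fibres expressed a constitutively active aryl hydrocarbon receptor. The set was defined by gene symbol as Tnni1, Tnni2, Tnnc1, Tnnc2, Tnnt1, Tnnt2, Tnnt3, Tpm1, Tpm2 and Tpm3, and all 10 were found among the 49315 genes of the count table. Each gene passed the filter on low counts and was among the 15847 genes tested. Male C57BL6J mice were injected in the muscle at 5 months of age with AAV9, an adeno-associated virus, and the muscle was taken 5 months later. In the AAV9-HSA-CAAHR group (replicates 31, 34 and 36) the virus carried a mouse AHR that lacks its ligand-binding domain and so signals without ligand. In the AAV9-HSA-GFP group (replicates 42, 43 and 46) it carried a green fluorescent protein. In both constructs expression was restricted to muscle fibres by HSA, the promoter of human skeletal actin, so every library came from virus-injected muscle and uninjected muscle was not analysed here. The labels do not record which part of the gastrocnemius was sampled, and do not state that each library came from a separate animal, so the spread between libraries may be partly technical.

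Contraction of striated muscle is switched on and off by the troponin complex, which sits at regular intervals along the actin filament. Troponin C binds calcium, troponin I holds the filament in the inhibited state, and troponin T anchors the complex to tropomyosin, a coiled coil that lies over the myosin binding sites of actin. Each subunit exists as isoforms from separate genes, and slow and fast fibres use different sets. The slow set is troponin I from Tnni1, troponin C from Tnnc1 (shared with the heart) and troponin T from Tnnt1, and the fast set is made from Tnni2, Tnnc2 and Tnnt3. Tnnt2 encodes cardiac troponin T. Of the tropomyosins, alpha tropomyosin from Tpm1 is typical of fast fibres and heart, the Tpm3 product of slow fibres, and beta tropomyosin from Tpm2 is found in both types of fibre. Tpm1 and Tpm3 also give rise to non-muscle transcripts, and gene counts add all transcripts of a gene together.

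Library totals lay between 43432994 and 58825752 counts. Ahr itself stood at 16.7 ± 6.44 CPM (scaled counts per 1e+06 counts of the library, SD, n = 3) with CAAHR and 2.29 ± 0.370 with GFP, and its target gene Cyp1a1 at 1475 ± 227 against 6.79 ± 0.942, so each library matched its label. In CAAHR 31, 34 and 36 Ahr stood at 9.96, 22.8 and 17.3 CPM, and Cyp1a1 at 1230, 1679 and 1517 CPM. Both were thus highest in CAAHR 34 and lowest in CAAHR 31. Whether these levels bear on the troponin values below was not tested. The tissue was fast skeletal muscle, with the 12 genes of a fast fibre list summing to between 131830 and 189590 CPM over all libraries. Of a list of 7 cardiac genes, Nppa, Nppb and Myl7 had at most 4 counts in any library, while Myh6 had 33 to 431 and Myl4 255 to 384. The lowest count behind a slow troponin value was 202 (Tnni1 in a GFP library), a relative counting error of 7.04%, and that for Tnnt2 was 152, or 8.11%, so that counting error was small beside the differences between libraries described below for the slow genes. A list of 6 leukocyte genes moved with the groups, at a summed 12.3 to 21.8 CPM with CAAHR and 127 to 412 CPM with GFP. Its members Ptprc, Cd79a and Ighm were called lower (edgeR adjusted p under 0.05, background 4.57% of tested genes), and its part in the results below was not tested. The paper on these mice attributes a local immune response in muscle to the GFP virus. By its quantitative PCR, selected immune genes were not lower with CAAHR than in mice given no virus. GFP muscle, the only reference here, is therefore not an untreated baseline.

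The fast troponins I and T were lower in CAAHR muscle and passed the test over all genes, while the slow troponins and Tpm3 lay higher in each CAAHR library, least so in replicate 34, but did not pass it. Of the 10 genes, edgeR's quasi-likelihood test with Benjamini-Hochberg adjustment called 2 lower (Tnni2 and Tnnt3) and 0 higher at an adjusted p under 0.05. The background over all tested genes was 4.57% called lower and 3.04% called higher. At an unadjusted p under 0.05, 4 of the 10 were higher (Tnni1, Tnnc1, Tnnt1 and Tpm3; background 11.3%) and 3 lower (Tnni2, Tnnc2 and Tnnt3; background 12.6%). For the same 4 genes all CAAHR libraries lay above all GFP libraries, a separation seen in 15% of tested genes, and for the same 3 all lay below, seen in 14.9%.

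**Figure D1:**
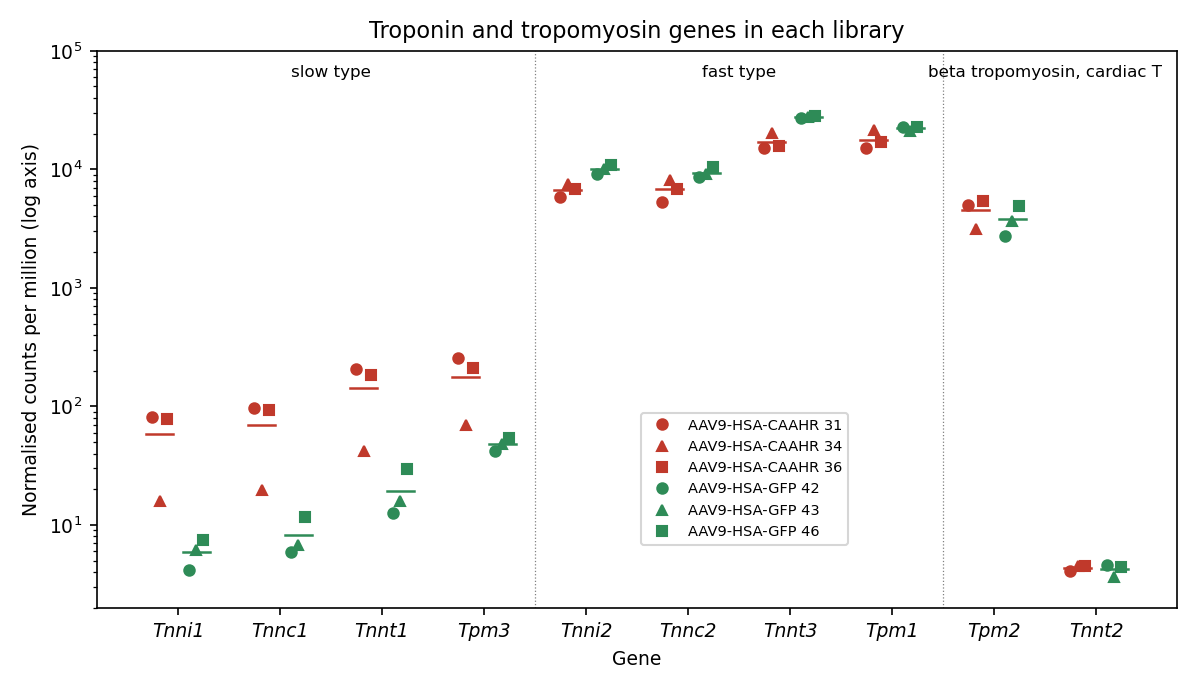
Normalised CPM (log axis) of the 10 genes in the 6 libraries, with each point a library and each short line the mean of 3 libraries. The slow-type genes sit higher in every CAAHR library (red) than in any GFP library (green), with AAV9-HSA-CAAHR 34 (red triangle) the lowest of the 3, and the fast troponins sit lower in every CAAHR library.

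The slow troponin genes were present at low levels in GFP muscle. Tnni1, slow troponin I (chr1:135779434-135810989, plus strand; all positions are from GENCODE on GRCm38), stood at 81.4, 16.1 and 78.6 CPM in CAAHR replicates 31, 34 and 36 and at 4.18, 6.13 and 7.49 CPM in GFP replicates 42, 43 and 46. Replicates 31 and 36 were high, replicate 34 was nearer to the GFP libraries, and the groups did not overlap. The log2 fold change was 3.30 ± 0.73 (SE), or 9.87-fold in the edgeR fit, with an edgeR adjusted p of 0.0653. Tnnc1, slow and cardiac troponin C (chr14:31208312-31211729, plus strand), had 96.7, 19.6 and 93.7 CPM with CAAHR and 5.92, 6.80 and 11.8 CPM with GFP. It showed the same order of libraries, with no overlap. Its log2 fold change was 3.10 ± 0.73 (SE, edgeR adjusted p = 0.0764). Tnnt1, slow troponin T (chr7:4504570-4516382, minus strand), had 206, 41.7 and 184 CPM with CAAHR and 12.7, 15.9 and 29.9 CPM with GFP. Again CAAHR 34 was the lowest of its group and still lay above the highest GFP library. Its log2 fold change was 2.88 ± 0.74 (SE, edgeR adjusted p = 0.0932).

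The slow troponins therefore lay in the same order in both groups: CAAHR 31, then 36, then 34, then GFP 46, 43 and 42. On the mean of log2 CPM, CAAHR 34 exceeded the GFP libraries by 2.79-fold for Tnni1, 2.52-fold for Tnnc1 and 2.29-fold for Tnnt1. The other CAAHR libraries exceeded them by 13.9-fold, 12.2-fold and 10.7-fold. In bulk muscle a larger number of slow fibres and more slow-type RNA per fibre cannot be told apart. The part of the gastrocnemius that was sampled is also not recorded.

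The windows 250 bases upstream of the RefSeq transcript starts (GRCm38.p6) are shown for these genes because they moved together, with the fast troponin C gene Tnnc2 for contrast. Capitals mark E boxes (CANNTG), the core motif of myogenic basic helix-loop-helix factors, which reads alike on both strands. The windows lie at chr1:135799171-135799420 (plus strand) for Tnni1, chr14:31208062-31208311 (plus strand) for Tnnc1, chr7:4515976-4516225 (minus strand) for Tnnt1 and chr2:164779735-164779984 (minus strand) for Tnnc2.
Tnni1: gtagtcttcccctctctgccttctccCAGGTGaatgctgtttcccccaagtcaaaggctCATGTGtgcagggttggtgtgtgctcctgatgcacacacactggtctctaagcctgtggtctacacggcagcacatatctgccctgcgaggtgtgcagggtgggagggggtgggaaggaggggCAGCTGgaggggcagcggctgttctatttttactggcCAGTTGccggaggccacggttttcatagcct
Tnnc1: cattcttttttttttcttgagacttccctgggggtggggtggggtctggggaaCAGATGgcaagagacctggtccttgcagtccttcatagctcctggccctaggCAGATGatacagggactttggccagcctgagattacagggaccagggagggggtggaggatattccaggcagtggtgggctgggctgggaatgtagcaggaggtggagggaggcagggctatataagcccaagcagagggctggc
Tnnt1: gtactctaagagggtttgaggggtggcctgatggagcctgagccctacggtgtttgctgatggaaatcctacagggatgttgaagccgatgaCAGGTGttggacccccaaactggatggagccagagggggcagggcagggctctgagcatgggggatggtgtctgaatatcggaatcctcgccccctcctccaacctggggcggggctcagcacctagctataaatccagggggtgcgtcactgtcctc
Tnnc2: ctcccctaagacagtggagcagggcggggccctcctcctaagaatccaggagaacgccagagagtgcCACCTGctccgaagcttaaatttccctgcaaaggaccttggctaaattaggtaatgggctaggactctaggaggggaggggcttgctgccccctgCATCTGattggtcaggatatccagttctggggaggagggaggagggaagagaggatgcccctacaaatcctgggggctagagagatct
These windows held 4 E boxes for Tnni1, 2 for Tnnc1, 1 for Tnnt1 and 2 for Tnnc2. The window of another Tnni1 start, at chr1:135799261-135799510 (plus strand) and not shown, held 2. RefSeq windows of 300 bases, which run 50 bases past the start, were found for 8 of the 10 genes (11 windows, since some genes have several starts), with none for Tnni2 and Tnnt3. All 11 held an E box on either strand, as did 72.3% of all 32851 windows in the table. The core of the xenobiotic response element bound by AHR (GCGTG, both strands) was present in 2 of the 11 windows, one each of Tnnt2 and Tpm1, against 32.4% of all windows. The M-CAT motif (CATTCC) was in 3 (background 14.7%), the letters TATAAA in 1, that of Tnnt1 (13.6%), and a MEF2 site or CArG box in 0 (1.86% and 1.63%). No match of one motif overlapped a match of another. Such matches describe letters in these windows and say nothing about binding.

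The fast troponin genes were among the most abundant transcripts. Tnni2, fast troponin I (chr7:142441808-142444410, plus strand), stood at 5857, 7485 and 6824 CPM in CAAHR 31, 34 and 36 and at 9055, 10085 and 10839 CPM in GFP 42, 43 and 46. Every CAAHR library was below every GFP library. It fell by 0.57 ± 0.14 (SE) on the log2 scale, to 0.673 times the GFP mean, with an edgeR adjusted p of 0.0417. Tnnt3, fast troponin T (chr7:142498836-142516009, plus strand), had 15171, 20290 and 15751 CPM with CAAHR and 26970, 27473 and 27923 CPM with GFP. The GFP libraries were close together and the CAAHR libraries all lower, with CAAHR 34 the nearest to them. Tnnt3 fell by 0.69 ± 0.15 (SE) on the log2 scale, to 0.622 times the GFP mean (edgeR adjusted p = 0.0264). Tnnc2, fast troponin C (chr2:164777161-164779967, minus strand), had 5342, 8137 and 6792 CPM with CAAHR and 8562, 9115 and 10428 CPM with GFP. The groups did not overlap, but CAAHR 34 lay just under the lowest GFP library. The log2 fold change of Tnnc2 was -0.47 ± 0.17 (SE) and did not pass the test (edgeR adjusted p = 0.128).

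The calls on Tnni2 and Tnnt3 were each lost when any library other than CAAHR 34 was left out, with edgeR adjusted p between 0.0741 and 0.146 for Tnni2 and between 0.0666 and 0.13 for Tnnt3. In these fits, which compare 2 libraries with 3, 0 of the 10 genes were called, with 6 to 7 at an unadjusted p under 0.05 (18.6% to 21.5% of all tested genes). Fewer genes were called over the whole table too, 4.21% without CAAHR 31, 3.28% without CAAHR 36, 5.17% without GFP 42, 4.28% without GFP 43 and 3.76% without GFP 46. Without CAAHR 34, by contrast, 8 of the 10 were called (background 10.7% of genes in either direction): Tnni1, Tnnc1, Tnnt1 and Tpm3 higher, and Tnni2, Tnnc2, Tnnt3 and Tpm1 lower. The slow genes were also called higher with all 6 libraries by the other models tried. The DESeq2 Wald test called 7 of the 10 (4 higher and 3 lower; background 12.1%). limma-voom with sample weights called 6 (4 higher and 2 lower; background 9.22%), and edgeR without robust estimation called 6 (4 higher and 2 lower; background 8.07%).

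**Figure D2:**
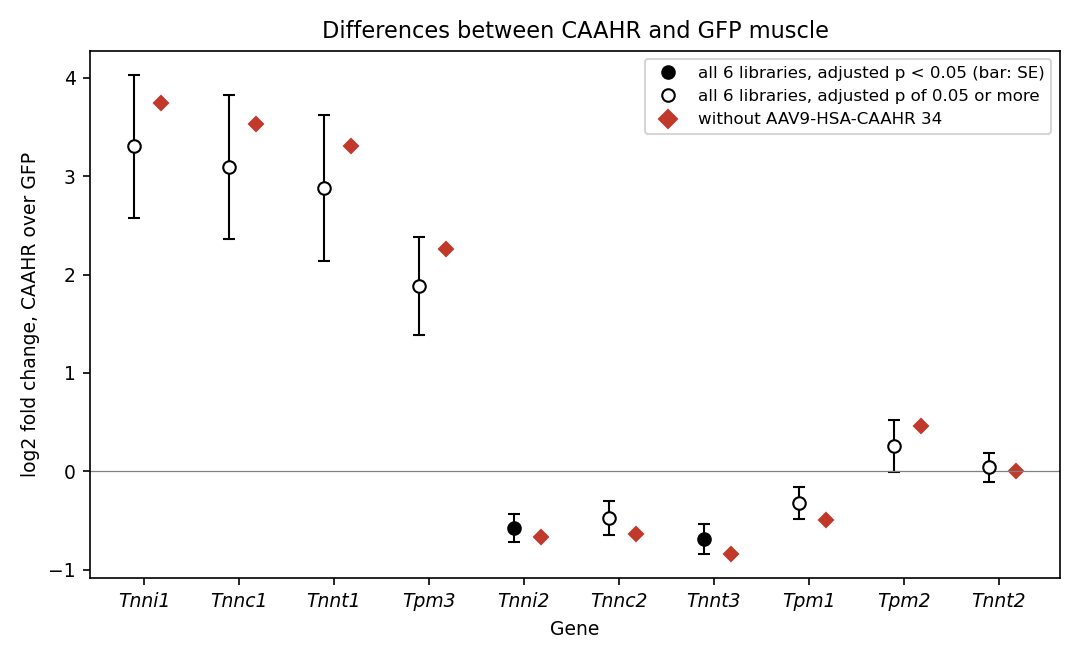
Log2 fold change of each gene, CAAHR over GFP, from edgeR. Circles with SE bars use all 6 libraries (filled where adjusted p is under 0.05, here Tnni2 and Tnnt3), and red diamonds leave out AAV9-HSA-CAAHR 34, which moves the slow genes up (Tnni1 from 3.30 to 3.74) and the fast genes down (Tnnt3 from -0.69 to -0.84).

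The genes of some members lie together in the genome. Tnni2 and Tnnt3, the pair called lower, are neighbours on chromosome 7 with 54425 bases and the gene Lsp1 between them, whereas the slow Tnni1 and the cardiac Tnnt2 are neighbours on chromosome 1 with 25364 bases and Lad1 between them. The values of Tnnt2 were unlike those of Tnni1. Tnnt2, cardiac troponin T (chr1:135836354-135852260, plus strand), had 4.05, 4.53 and 4.48 CPM with CAAHR and 4.598, 3.65 and 4.43 CPM with GFP. The groups overlapped fully, with a log2 fold change of 0.04 ± 0.15 (SE, edgeR adjusted p = 0.907). The cardiac troponin I gene Tnni3, which lies 1922 bases from Tnnt1, was near the limit of detection at 0.177 ± 0.0458 CPM with CAAHR and 0.218 ± 0.0299 CPM with GFP (SD, n = 3 each).

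Of the tropomyosins, Tpm3 lay with the slow troponins. Tpm3 (chr3:90072649-90100902, plus strand) had 254, 69.1 and 210 CPM in CAAHR 31, 34 and 36 and 42.2, 48.5 and 53.8 CPM in GFP 42, 43 and 46. CAAHR 34 exceeded the highest GFP library by little, and the groups did not overlap. The log2 fold change was 1.88 ± 0.50 (SE, edgeR adjusted p = 0.0953). Tpm1, the most abundant tropomyosin (chr9:67022590-67049406, minus strand), had 14986, 21600 and 16885 CPM with CAAHR and 22652, 21238 and 22942 CPM with GFP. CAAHR 34 lay within the GFP range and the other CAAHR libraries below it. The log2 fold change was -0.32 ± 0.16 (SE, edgeR adjusted p = 0.261). Tpm2 (chr4:43514711-43523765, minus strand) had 5018, 3124 and 5440 CPM with CAAHR and 2725, 3690 and 4923 CPM with GFP. Both groups were widely spread and overlapped, with a log2 fold change of 0.26 ± 0.26 (SE, edgeR adjusted p = 0.611). Within the groups Tpm2 was ordered much as the slow genes were, lowest in CAAHR 34 among the CAAHR libraries and highest in GFP 46 among the GFP libraries.

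To compare isoforms with each other, counts were divided by the kilobases of merged exon of each gene. The order of levels between genes depends on that length and was not taken with other lengths. For Tnni2 the merged exons hold 1497 bases and the longest protein-coding transcript 768, and for Tnnc2 800 and 700. In GFP muscle the order of levels per kb was Tnnt3 (17344 ± 301 CPM per kb, SD, n = 3), Tnnc2 (11710 ± 1198), Tnni2 (6675 ± 598), Tpm1 (3435 ± 141), Tpm2 (1299 ± 379), Tnnt1 (8.85 ± 4.15), Tpm3 (7.92 ± 0.952), Tnnc1 (7.84 ± 3.02), Tnni1 (1.65 ± 0.462) and Tnnt2 (0.545 ± 0.0653). Tnnt1, Tpm3 and Tnnc1 did not differ beyond their spread, and the other neighbours in this order did not overlap. In CAAHR muscle the first 5 places were unchanged, with Tnnt3 (10784 ± 1771) and Tnnc2 (8447 ± 1748) now overlapping. Tnnc1 (67.3 ± 41.9), Tnnt1 (65.3 ± 40.4), Tpm3 (29.2 ± 15.9) and Tnni1 (16.3 ± 10.3) followed, with the range of each across libraries overlapping the next. Tnnt2 (0.561 ± 0.0338) was again last. Compared within a library, Tnnt3 lay above Tnnc2, Tnnt1 above Tpm3 and Tpm3 above Tnni1 in 3 of 3 CAAHR libraries. Tnnc1 lay above Tnnt1 in 1 of 3. Between Tpm2 and the highest slow gene the step was 147-fold in GFP muscle and 23.1-fold in CAAHR muscle.

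The slow to fast ratio of each subunit was then taken within each library, which removes differences in scaling. For troponin I there were 173, 1119.8 and 209 Tnni2 counts per Tnni1 count (both per kb) in CAAHR 31, 34 and 36, and 5205, 3959 and 3479 in GFP 42, 43 and 46. For troponin C there were 71.9, 539.55 and 94.3 Tnnc2 per Tnnc1 with CAAHR, and 1881, 1745 and 1154 with GFP. For troponin T there were 103, 677 and 119 Tnnt3 per Tnnt1 with CAAHR, and 2953, 2405 and 1299.7 with GFP. Thus the fast form outnumbered the slow form by at least 71.9 to 1 per kb of merged exon in every library, a bound that depends on the gene length used. The excess was smaller in each CAAHR library than in any GFP library. The mean log2 ratio was -8.42 ± 1.48 with CAAHR and -12.02 ± 0.30 with GFP for troponin I (SD, n = 3 each), -7.27 ± 1.58 and -10.61 ± 0.38 for troponin C, and -7.66 ± 1.51 and -11.03 ± 0.62 for troponin T. These differences amount to 12.1-fold, 10.1-fold and 10.4-fold, and to 21.9-fold, 18.9-fold and 19.0-fold without CAAHR 34. In the two-sided exact permutation test each gave p = 0.1, the smallest that 3 libraries against 3 allow, and 0.125 after Benjamini-Hochberg adjustment over 10 such tests, so the threshold of 0.05 could not be reached.

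The slow share was also taken for each of the 3 subunits. In CAAHR 31 the slow form made up 0.575% of troponin I, 1.37% of troponin C and 0.965% of troponin T per kb. In CAAHR 34 these shares were 0.0892%, 0.185% and 0.148%, and in GFP 42 they were 0.0192%, 0.0531% and 0.0339%. The slow share was highest for troponin C in all 6 libraries, and lowest for troponin I when any of the 3 gene lengths tried was used. On counts not divided by length it was lowest for troponin I in 3 libraries and for troponin T in the other 3. Over the 6 skeletal troponin genes together, the slow share was 1.02%, 0.151% and 0.843% in CAAHR 31, 34 and 36 and 0.0373%, 0.0435% and 0.0710% in GFP 42, 43 and 46. The CAAHR libraries all lay above the GFP libraries, with a mean of 0.673% ± 0.461 against 0.0506% ± 0.0179 (SD, n = 3 each; exact permutation p = 0.1, adjusted 0.125).

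**Figure D3:**
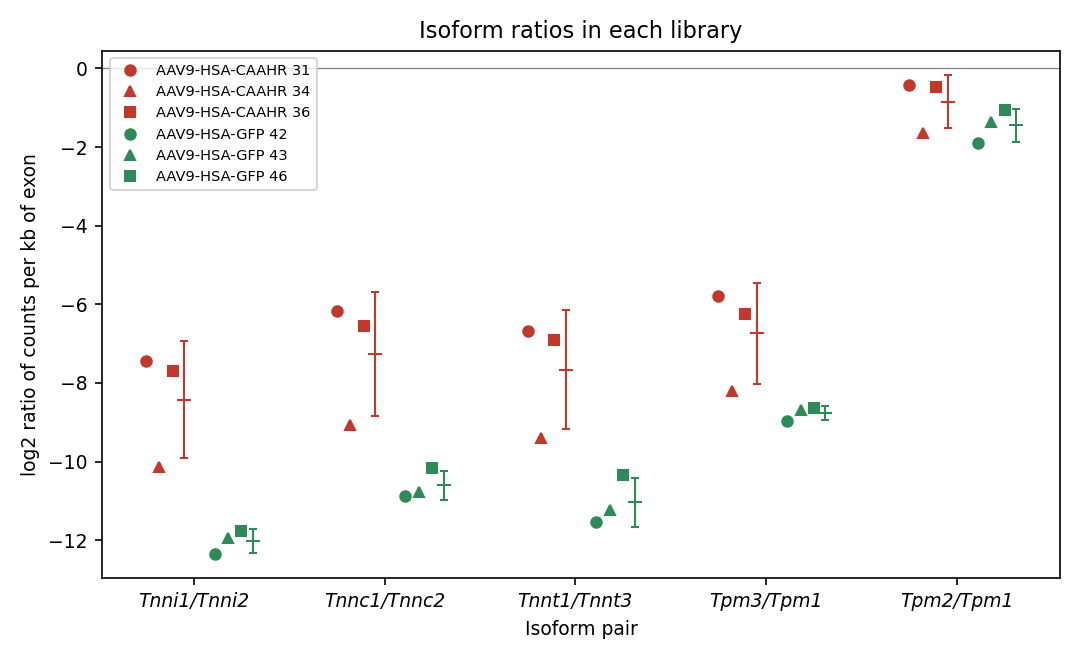
Log2 ratio of counts per kb of exon for 5 isoform pairs in each library (points), with the mean and SD of 3 libraries beside them (bars). The first 4 pairs are shifted up in all CAAHR libraries (red) relative to GFP (green), with CAAHR 34 between the groups, and the Tpm2/Tpm1 ratio overlaps.

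For tropomyosin, there were 55.4, 293 and 75.4 Tpm1 counts per Tpm3 count (per kb) in CAAHR 31, 34 and 36 and 504, 411 and 400.25 in GFP 42, 43 and 46. The shift was smaller than in the troponins, 4.07-fold (6.75-fold without CAAHR 34), with no overlap (exact permutation p = 0.1, adjusted 0.125); whether it differs from theirs was not tested. The Tpm2 to Tpm1 ratio was 0.747, 0.322 and 0.718 with CAAHR and 0.268, 0.387 and 0.478 with GFP. CAAHR 31 and 36 lay above all GFP libraries and CAAHR 34 within them (1.52-fold difference of log2 means, exact permutation p = 0.3, adjusted 0.3). As a share of tropomyosin per kb, Tpm2 made up 42.3%, 24.3% and 41.5% with CAAHR and 21.1%, 27.9% and 32.3% with GFP, and Tpm3 made up 1.02%, 0.257% and 0.766% against 0.156%, 0.175% and 0.169%. These shares depend on the length used, since the merged exons of Tpm1 and Tpm3 include many alternative exons.

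**Figure D4:**
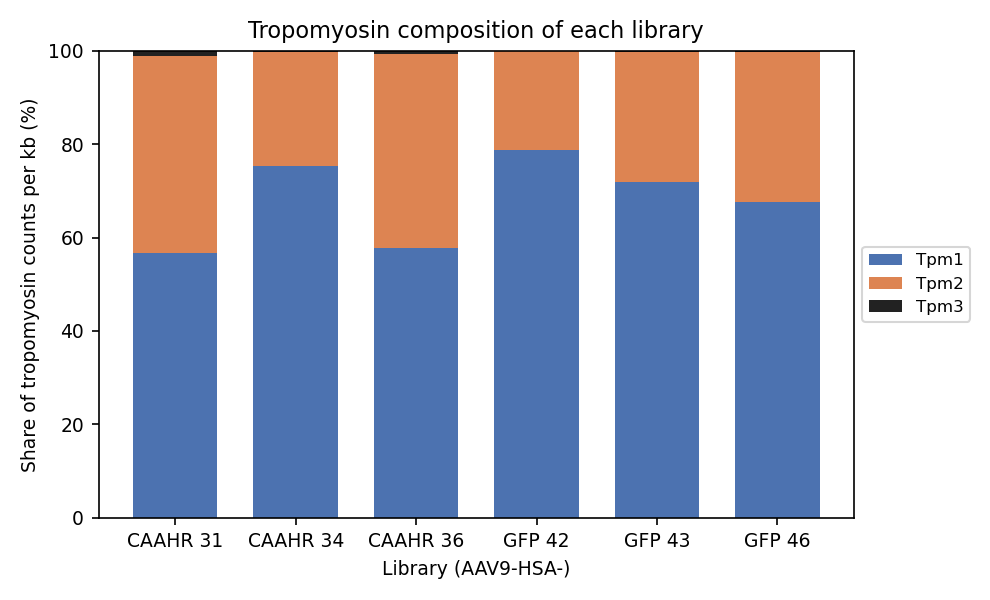
Share of tropomyosin counts per kb of exon from Tpm1, Tpm2 and Tpm3 in each library (stacked bars, percent). Tpm1 made up 56.7% and 57.8% in CAAHR 31 and 36 and 67.5% to 78.7% in the GFP libraries, with CAAHR 34 at 75.4%.

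Because the slow forms were scarce, the totals of the families followed the fast forms. Total troponin I was 3935, 5005 and 4580 CPM per kb in CAAHR 31, 34 and 36 and 6050, 6739 and 7242 in GFP 42, 43 and 46. Troponin C was at 6770, 10191 and 8580 against 10708, 11400 and 13046, and troponin T at 9678, 12837 and 10034 against 17044, 17363 and 17654. All 3 totals lay below the GFP range in every CAAHR library, at 0.673, 0.719 and 0.620 times the GFP level (exact permutation p = 0.1 and adjusted 0.125 for each). Total tropomyosin overlapped with merged exon lengths, at 4078, 4416 and 4508 CPM per kb against 4437, 4552 and 5239 (0.916 times, exact permutation p = 0.2, adjusted 0.222). That overlap depended on the setting. With the longest transcript, the longest protein-coding transcript, no length or upper quartile scaling, the groups did not overlap (exact permutation p = 0.1, unadjusted). The log2 differences there were -0.187, -0.186, -0.216 and -0.200. With library size only the log2 difference was -0.045 (exact permutation p = 0.7). Together the 10 genes took 5.48% ± 0.561 of all counts in CAAHR muscle and 7.09% ± 0.355 in GFP muscle (SD, n = 3 each).

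Some reads could fit other genes as well. The coding sequences of slow and fast counterparts were 70.4% to 71.4% identical for the troponins and 76.5% for Tpm3 and Tpm1. That of Tpm2 was 75.5% identical to Tpm1 and 75.4% to Tpm3. No stretch of 100 bases in a transcript of a listed gene occurred in a transcript of another listed gene. Of the 100-base stretches of Tpm3, 15.8% also occurred in the gene Tpm3-rs7. Only uniquely mapped reads were counted, so reads that fit both genes equally well would be missing from the Tpm3 counts. The size of such a loss, and its effect on the Tpm3 levels, ratios and shares, was not measured. Tnnc2 shares 592 of its 800 exon bases with Ube2c on the opposite strand, and whether reads were counted by strand is not given in the sources used here. Ube2c, a ubiquitin-conjugating enzyme of dividing cells, had 253 ± 33.8 CPM with CAAHR and 346 ± 33.6 CPM with GFP (SD, n = 3 each), and its counts were between 3.53% and 4.12% of those of Tnnc2 in every library. Prr33, opposite to Tnnt3 with 0 shared exon bases, stood at 0.638% to 0.754% of the Tnnt3 counts, and was called lower (log2 fold change -0.70, edgeR adjusted p = 0.00377). Nisch, opposite to Tnnc1 with 0 shared exon bases, stood at 103 ± 10.7 CPM with CAAHR and 85.2 ± 3.09 CPM with GFP (SD, n = 3 each), which is 113% to 1413% of the Tnnc1 counts. Without strand, reads from the shared bases of Tnnc2 and Ube2c cannot be told apart.

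Genes that work with these proteins on the thin filament moved in both directions. Of 17 such genes, 1 was called higher and 3 lower (background 3.04% and 4.57%), with a median log2 fold change of 0.03 against 0.0086 over all tested genes. Acta1, skeletal actin, had 21722, 21993 and 21649 CPM in CAAHR 31, 34 and 36 and 35124, 36548 and 37654 CPM in GFP 42, 43 and 46. It was evenly lower in the CAAHR libraries, CAAHR 34 included, and fell by 0.74 ± 0.13 (SE) on the log2 scale (edgeR adjusted p = 0.00895). The cardiac actin gene Actc1 fell by 1.18 ± 0.21 (adjusted p = 0.0136) and Kbtbd13, a ubiquitin ligase adaptor mutated in nemaline myopathy, by 0.84 ± 0.11 (SE, adjusted p = 0.00261). Cap2, which promotes actin filament turnover, rose by 0.63 ± 0.12 (SE, adjusted p = 0.0161). Lmod2, a nucleator of actin filaments at the pointed end, had 416, 142 and 360 CPM with CAAHR and 69.6, 118 and 122 CPM with GFP, the same order of CAAHR libraries as the slow troponins (log2 fold change 1.57 ± 0.46, SE, adjusted p = 0.113).

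Other genes of slow and fast fibres were counted by list. In a list of 10 slow fibre genes, all 10 had positive log2 fold changes (median 2.07), and 1, Myh7b, was called (2.56 ± 0.49, SE, edgeR adjusted p = 0.0302, background 3.04% called higher). The count was 6 with DESeq2, 8 with limma-voom, 5 with edgeR without robust estimation and 5 without CAAHR 34, where 12.1%, 9.22%, 8.07% and 10.7% of all genes were called. It was 0 without any other single library, where 3.28% to 5.17% of all genes were called. The slow myosin gene Myh7 had a log2 fold change of 3.44 ± 0.78 (SE, adjusted p = 0.0691). CAAHR 34 was the lowest CAAHR library for 10 of the 10 slow fibre genes, and GFP 46 the highest GFP library for 10 of 10. The list summed to 1376 to 4557 CPM with CAAHR and 558 to 1411 CPM with GFP, so that the groups overlapped. In a list of 12 fast fibre genes 1 was called lower (background 4.57%), the essential light chain Myl1 (log2 fold change -0.72 ± 0.16, SE, adjusted p = 0.028), and the median was -0.30. The fast myosins had log2 fold changes of -0.31 ± 0.18 for Myh4, 0.997 ± 0.65 for Myh1 and 1.38 ± 0.81 for Myh2 (SE), none of them called (adjusted p = 0.325, 0.427 and 0.386).

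Other sources of slow or cardiac isoforms were checked by their markers. The background over all tested genes was 3.04% called higher and 4.57% called lower, and 11.3% higher at an unadjusted p under 0.05. With the other models and left-out libraries, 3.28% to 12.1% of genes were called in either direction. Of 9 genes of regenerating fibres, 6 were tested and 0 called (1 at an unadjusted p under 0.05, the myogenic factor Myog, log2 fold change 1.02; between 0 and 1 called by the other models and settings), and their sum was 75.7 to 93.1 CPM with CAAHR and 73.7 to 88.4 CPM with GFP. The most abundant of them, the neonatal myosin Myh8 and the acetylcholine receptor subunit Chrna1, had log2 fold changes of -0.25 ± 0.20 and 0.20 ± 0.19 (SE). Myh8 was the only 1 of the 6 tested with a negative change. The other 5 were positive, and the median over the 6 was 0.25 against 0.0086 over all tested genes. Of the 7 cardiac genes, 4 were tested and 1 was called lower (Myl4, -0.64; edgeR adjusted p = 0.0144). Myh6 lay higher in all CAAHR libraries (log2 fold change 2.53, adjusted p = 0.0537), at 5.12 ± 3.15 CPM against 0.884 ± 0.0904 (SD, n = 3 each). Of 8 smooth muscle genes, 1 was called higher (Lmod1) and 2 lower (Smtn and Actg2), with sums of 145 to 245 and 234 to 257 CPM. Of 5 fibroblast genes 0 were called, none of them at an unadjusted p under 0.05 or by any of the other models and settings. The most abundant of them, Dcn and Col1a1, had log2 fold changes of -0.17 ± 0.23 and 0.10 ± 0.30 (SE), and the 5 summed to 280.32 to 516 CPM with CAAHR and 402 to 495 CPM with GFP. The part of these lists in the troponin values was not tested.

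Across the whole table, the genes whose pattern over the 6 libraries was most like that of the summed slow troponins were Myh7, Pln, Fxyd6, Csrp3 and Myom3. Likeness was the root mean square distance between log2 CPM values, each centred on its own mean, over 7038 genes with a mean of at least 10 CPM. The distances were 0.20, 0.21, 0.26, 0.28 and 0.33, against a median of 1.60. Pln, phospholamban, the inhibitor of the slow calcium pump, had 50.1, 14.8 and 52.6 CPM with CAAHR and 3.79, 5.19 and 6.57 CPM with GFP. The genes most like the summed fast troponins were Relb, Serpinb6a, Atf4, Smtnl2 and Ckm, at distances of 0.034 to 0.064 against a median of 0.39. Ckm, muscle creatine kinase, had 14418, 20545 and 16984 CPM with CAAHR and 27423, 28966 and 29577 CPM with GFP. These genes were chosen for their likeness in the same libraries, so their differences between the groups are a description.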

How the data were processed

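RNA-seq of mouse gastrocnemius was analysed, with 3 AAV9-HSA-CAAHR and 3 AAV9-HSA-GFP libraries grouped by their titles. The deposited values were raw counts per gene, which the authors made from poly(A)-selected paired-end reads trimmed with Trimmomatic 0.36, aligned to GRCm38 with STAR 2.5.2b (versions from the submitters' processing notes) and summed over exons with featureCounts using uniquely mapped reads. Library totals were 43432994 to 58825752 counts. Replicates were not pooled.

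Counts were fitted in R 4.3.3 with edgeR 4.0.16 (filterByExpr, TMM scaling, robust quasi-likelihood F test), with Benjamini-Hochberg adjustment across the 15847 genes that entered the test and a threshold of 0.05. The procedure was tested on simulated data. Standard errors were derived from the F statistic. TMM denotes the trimmed mean of M values. The CPM values are scaled by it, and log2 CPM for the likeness measure used a prior count of 2. Counts per kb used merged exons of GENCODE on GRCm38, in which 99.3% of the table's genes were found. Ratios, family totals and the slow share were compared by two-sided exact permutation tests over libraries, adjusted over these 10 tests.

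Alternatives were other scalings and filters, DESeq2 1.42.0, limma 3.58.1 voom with sample weights, edgeR without robust estimation, other gene lengths and leaving out each library. The length of the longest protein-coding transcript was added after seeing the data. The 10 genes and the gene lists were chosen with earlier results of these data known. Named genes were the 10, Ahr, Cyp1a1, Myh7, Myh2, Myh1 and Myh4, the called genes of each list or else its 2 most abundant, the 5 genes most like the summed slow and the summed fast troponins, and genes overlapping or next to these genes. Lmod2, Myog, Myh6, Tnni3, Nppa, Nppb and Myl7 were named after their values were seen. Promoter sequences are from RefSeq on GRCm38.p6.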

Additional observations from a re-analysis of the deposited data

How the results depend on the processing

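The number of the 10 genes called at an adjusted p under 0.05 was 2 with all 6 libraries, and 7 with the DESeq2 Wald test, 6 with limma-voom and sample weights, 6 with edgeR without robust estimation, and 0 to 8 when single libraries were left out. It was 8 without AAV9-HSA-CAAHR 34 and 0 without any other library. With other scalings or filters on low counts it was 2 or 3. Over all genes the call count was 1205, and it rose to 1923 with DESeq2 and to 2470 of 28661 genes without a filter, and without single libraries it lay between 530 and 1727. The cause of these differences was not tested. The log2 fold change of Tnnt2 was 0.04 with all libraries, -0.032 with upper quartile scaling, and between -0.053 and 0.106 when single libraries were left out, negative only without AAV9-HSA-GFP 43. Every other one of the 10 genes kept its direction under all alternatives, with Tnni1 between 2.99 and 3.74 and Tnnt3 between -0.84 and -0.61. The 5 ratios, 4 family totals and the slow share kept their direction under each length tried and each left-out library, and the totals also with library size only and upper quartile scaling, and none could pass the permutation threshold. No paired analysis was possible because replicate numbers differ between the groups. Among the gene lists, calls moved between 1 and 7 of 17 thin filament genes, 0 and 8 of 10 slow and 0 and 7 of 12 fast fibre genes, and 0 and 5 of 6 leukocyte genes. Tnnt2, at about 4 CPM, is the gene whose value depth limits most.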
